A study of Mus musculus with 24 samples.

Results

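The comparison described here sets RN2 cells in which the hairpin shOgdh2081 had been switched on for 4 days against RN2 cells in which the control hairpin shRen713 had been switched on for as long. Its members are the 8 libraries of day 4 that carry either hairpin, of 24 libraries in all, taken from the labels: 4 of shOgdh2081, from clones 3 and 5, and 4 of shRen713, from clones 2 and 7, with 2 libraries per clone. RN2 is a mouse acute myeloid leukaemia line with the genotype Mll-Af9; NrasG12D, and every clone carries both alleles. Hairpins were brought in with retroviral vectors, their expression was induced by doxycycline, and the control cells received doxycycline too, so both sides share the line, the oncogenes, the vector system and the drug. The other libraries are the same clones at day 0, without doxycycline, and clones 1 and 5 of a second Ogdh hairpin, shOgdh346. A hairpin stands here on 2 clonal isolates, so p-values at a single day rest on the spread between clones of 1 hairpin, pooled over the 3 hairpins with shOgdh346 included. The libraries of a clone and day come from the same clonal isolate and were summed before testing. The labels do not say whether they share a culture.

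OGDH is the catalytic subunit of the 2-oxoglutarate dehydrogenase complex, which turns 2-oxoglutarate into succinyl-CoA inside mitochondria. Succinyl-CoA feeds the rest of the tricarboxylic acid (TCA) cycle and the first step of heme synthesis. 2-Oxoglutarate links the cycle to glutamate and is the co-substrate of a family of dioxygenases that includes histone demethylases, prolyl hydroxylases and the TET enzymes. Mll-Af9 leukaemia cells resemble granulocyte and monocyte precursors held short of maturity, so myeloid maturation genes, growth genes and metabolic genes were described side by side.

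The clones fall into a pair of kinds that cross the hairpins. Transcripts of the Y-linked genes Ddx3y, an RNA helicase, and Uty and Kdm5d, members of histone demethylase families, were present in shOgdh2081 clone 5 and in control clone 2. In the day 4 libraries Ddx3y averaged 95.6 CPM (counts scaled to a library size of 1000000) in shOgdh2081 clone 5 and 85.7 CPM in control clone 2, with 0 counts in shOgdh2081 clone 3, in control clone 7 and in both shOgdh346 clones. Ryr2, a calcium release channel, averaged 985 and 906 CPM in the clones with Y-linked transcripts and at most 1.55 CPM in the other 4. Dsp, which encodes the junction protein desmoplakin, went the other way, with 0.825 and 0.773 CPM in those clones and 49.3 to 79.4 CPM in the rest. The same split was there at day 0. Each side of the comparison thus holds 1 clone of each kind, and differences are also given within the kind, as shOgdh2081 clone 5 against control clone 2 and clone 3 against control clone 7. Such a pair holds 1 clone a side and has no test of its own.

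**Figure D1:**
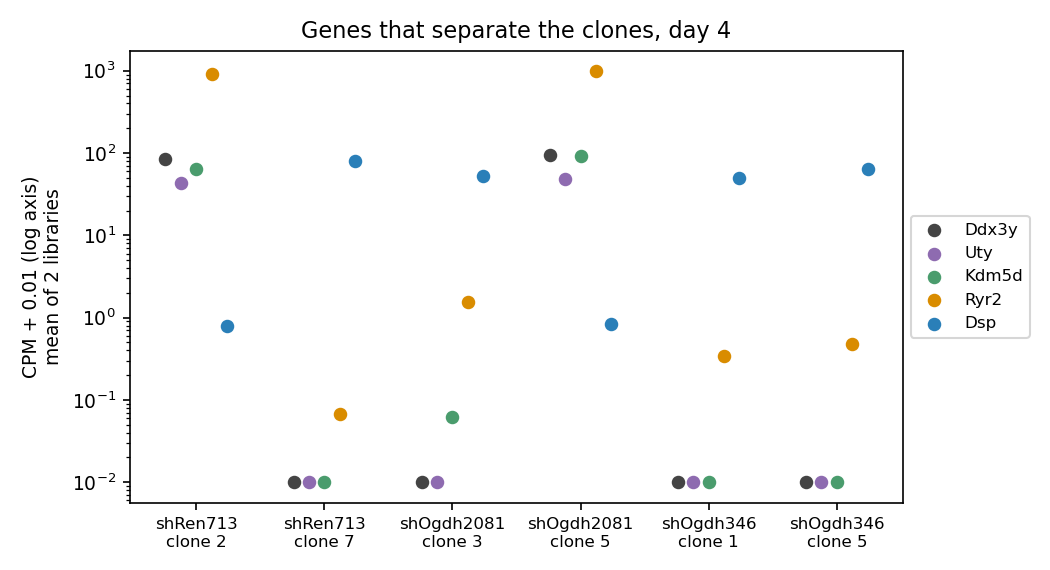
Level of Ddx3y, Uty, Kdm5d, Ryr2 and Dsp in each of the 6 clones at day 4 (mean of 2 libraries, CPM plus 0.01 on a log axis; points at the bottom are 0). Control clone 2 and shOgdh2081 clone 5 hold the Y-linked transcripts and Ryr2, and the other 4 clones hold Dsp.

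Total counts per library ran from 7209186 to 20705468 in shOgdh2081 and from 8394101 to 9612783 in the control. Between 17999 and 20657 genes had a count in shOgdh2081 and between 16955 and 17341 in the control, so the 2 ranges do not overlap and move with the comparison. The 10 most abundant genes took 4.40% to 6.68% of counts in shOgdh2081 and 3.63% to 4.18% in the control. The part of depth and of these shares in the results was not tested. In a principal component analysis of the 12 day 4 libraries the first component, with 52.7% of the variance, placed the control libraries from -78.1 to -56.6 and the shOgdh2081 libraries at 37.8 and 39.2 for clone 3 and at 12.04 and 12.48 for clone 5. The second component, with 19.2%, separated clones of 1 hairpin.

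Ogdh, the target (ENSMUSG00000020456, GRCm38 chromosome 11, 6291633 to 6356642), was lower in every shOgdh2081 library than in any control library. It stood at 69.1 and 71.6 CPM in clone 3 and 32.8 and 38.6 CPM in clone 5, against 206 and 206 CPM in control clone 2 and 234 and 250.4 CPM in control clone 7. The ranges of the sides do not meet, libraries of 1 clone lay close together, and clone 5 was below clone 3. Mean levels were 53.03 ± 24.5 CPM in shOgdh2081 and 224 ± 25.7 CPM in the control (SD over 2 clones), so that 23.6% of the control level remained, and the log2 fold change was -2.11 ± 0.38 (SE; adjusted p = 0.0345) (edgeR's quasi-likelihood test, Benjamini-Hochberg adjustment over 13747 genes, as for all adjusted p-values below). Within the clone kinds the log2 difference was -2.51 for clone 5 against control clone 2 and -1.78 for clone 3 against control clone 7. At day 0 the same clones differed by -0.28 (log2), with adjusted p = 1, and the net change, that is the change from day 0 to day 4 with shOgdh2081 minus that with the control, was -1.87 ± 0.21 (SE; adjusted p = 0.00127). An exact permutation test of clone means (two-sided) gave p = 0.333, the smallest that 2 clones against 2 can give over 6 splits. The call rests on all 4 clones: adjusted p was 0.0804 without shOgdh2081 clone 3, 0.0652 without clone 5, 0.115 without control clone 2 and 0.141 without control clone 7. In these bulk cultures, fewer cells that express a gene and less of its RNA per cell cannot be told apart.

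**Figure D2:**
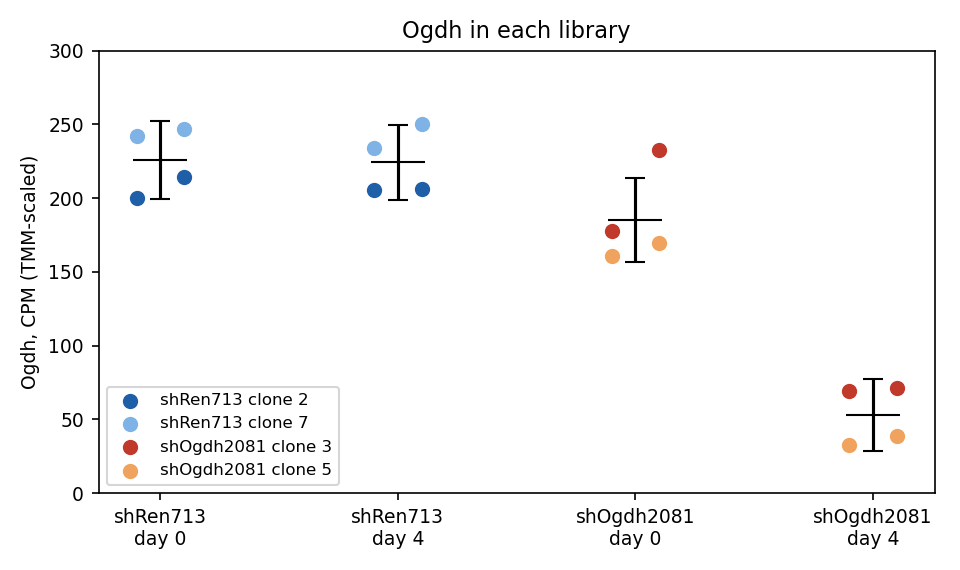
Ogdh in each library of the control and of shOgdh2081 at day 0 and day 4 (CPM, axis from 0; points are libraries coloured by clone, bars are the mean and SD over 2 clones). The 4 shOgdh2081 libraries of day 4 lie between 32.8 and 71.6 CPM and all other libraries lie above them.

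At day 4, 968 of 13747 genes (7.04%) were higher in shOgdh2081 and 932 (6.78%) were lower at an adjusted p under 0.05. Rises were larger than falls: 603 of the higher genes and 234 of the lower genes differed by more than 2-fold, with median log2 fold changes of 1.38 and -0.78, while the median of all tested genes was -0.01. Of the 968 higher genes 19 had 0 counts in the control, and 826 passed the low-count filter at day 0, against 931 of the 932 lower genes. The higher genes thus include some with little or no control signal, whose fold sizes are poorly determined. The part of such genes in the larger rises was not tested. Of the called genes, 967 and 932 had no overlap between the 4 libraries of each side, a separation that 3237 (23.5%) and 3207 (23.3%) of all tested genes showed upward and downward. The counts rest on both clones of each hairpin. Without control clone 2 they were 5 higher and 0 lower, and without control clone 7 they were 1 and 1, although 1992 and 1550, and 1877 and 1338, genes kept an unadjusted p under 0.05. Without shOgdh2081 clone 3 the counts were 0 and 0 in edgeR's test (1898 and 2140 at unadjusted p under 0.05), and without clone 5 they were 442 and 417. With a term for the clone kind, a fit chosen after the data were seen, 1126 genes were higher and 1173 lower. Of the 126 genes other than Ogdh that the naming rule chose for a day 4 difference from the control, 119 kept their call in that fit and none changed direction. Those that lost it include Car4, Ighm, P2rx3, Cth, Uros and Gata2, with adjusted p from 0.0505 to 0.0736. None of the 126 changed direction without any 1 clone either, while 0 kept the call without shOgdh2081 clone 3, 68 without clone 5, 1 without control clone 2 and 1 without control clone 7.

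**Figure D3:**
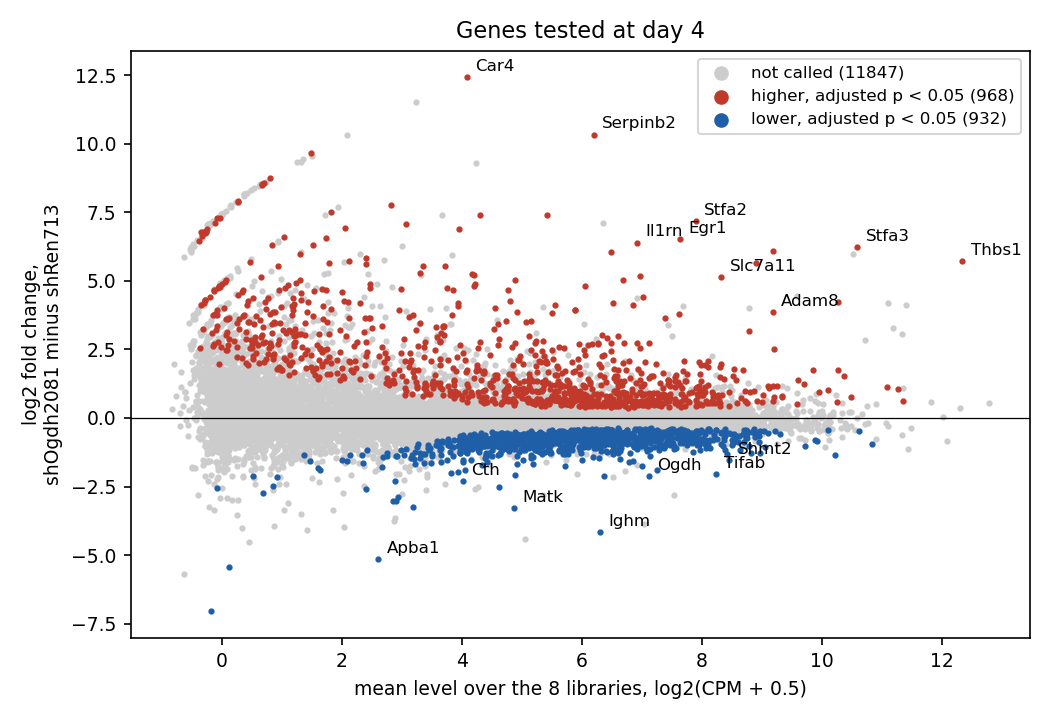
Each tested gene by its mean level over the 8 libraries (log2 of CPM plus 0.5) and its log2 fold change, shOgdh2081 minus shRen713 at day 4; colours mark the 968 genes called higher and the 932 called lower. The largest differences are rises, and Ogdh lies at -2.11.

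Thbs1 encodes the secreted matrix protein thrombospondin-1. It stood at 15558 and 17697 CPM in clone 3 and 3556 and 3904 CPM in clone 5, against 40.8 and 43.6 CPM in control clone 2 and 323 and 330.4 CPM in control clone 7. Both control clones were low, but clone 7 was above clone 2. The largest rises and falls were chosen among genes without overlap between the libraries of the sides, so that separation is given by the choice. Its log2 fold change was 5.72 ± 1.30 (SE; adjusted p = 0.0485), with 6.45 and 5.67 in the clone 5 and clone 3 pairs. Serpinb2, an inhibitor of plasminogen activators, stood at 214 and 196 CPM in clone 3 and 95.0 and 77.4 CPM in clone 5, against 0.210 and 0.202 CPM in control clone 2 and 0 and 0 CPM in control clone 7. Control libraries held 4 counts in all, and the log2 fold change was 10.33 ± 1.05 (SE; adjusted p = 0.0212). Car4, a membrane-bound carbonic anhydrase, had 1848 counts in shOgdh2081 and 0 in the control, which makes it at least 399-fold higher against a floor of 3 counts over the control libraries (adjusted p = 0.0469, and adjusted p = 0.0539 with the clone kind as a term). The stefins Stfa2, Stfa3 and Stfa2l1, neutrophil inhibitors of cysteine proteases, rose with log2 fold changes of 7.17, 6.22 and 5.65. Stfa3, as an example, stood at 4579 and 4238 CPM in clone 3 and 1691 and 1682 CPM in clone 5, against 6.52 and 7.56 CPM in control clone 2 and 71.5 and 74.6 CPM in control clone 7. The libraries of the 2 sides are far apart in both clone kinds, but these genes are near-identical neighbours on chromosome 16 and how reads were shared among them is uncertain.

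Il1rn, Egr1, Egr3, Ptprn, Pde10a and Raet1d were also among the 12 largest rises. Il1rn, the interleukin 1 receptor antagonist, stood at 346.3 and 325 CPM in clone 3 and 144 and 135 CPM in clone 5, against 2.73 and 3.63 CPM in control clone 2 and 2.20 and 2.52 CPM in control clone 7, and its log2 fold change was 6.39 ± 0.61 (SE; adjusted p = 0.0212). The early-response transcription factors Egr1 and Egr3 had log2 fold changes of 6.51 ± 0.89 (SE; adjusted p = 0.0272) and 7.396 ± 1.40 (SE; adjusted p = 0.0366). Egr3 ran from 20.1 to 149.9 CPM in shOgdh2081 and from 0.421 to 0.524 CPM in the control, and clone 3 was the higher clone for both genes. Ptprn, a receptor-type phosphatase relative found on secretory granules, the phosphodiesterase Pde10a and Raet1d, a stress ligand read by natural killer cells, had log2 fold changes of 7.404, 5.56 and 5.54. Pde10a differed by 2.94 at day 0 already (log2, adjusted p = 1), and its net change was 2.89 ± 0.81 (SE; adjusted p = 0.0289). Egr3 and Ptprn differed by 1.23 and 1.37 at day 0 (log2, adjusted p = 1 for both), and their net changes of 5.89 ± 2.00 (SE; adjusted p = 0.0959) and 5.71 ± 1.69 (SE; adjusted p = 0.0613) did not pass the test. Serpinb2, Thbs1 and Stfa3 also differed at day 0, by 2.27, 1.76 and 1.19 (log2, not called). Their net changes were 8.19 ± 1.10, 4.11 ± 0.53 and 5.09 ± 0.68 (SE; adjusted p = 0.0016, 0.00449 and 0.00681). Car4 was at 0 CPM on both sides at day 0, and its net change did not pass the test.

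Falls were smaller. Ighm, the constant part of immunoglobulin mu, which early blood cells can transcribe, stood at 8.10 and 5.02 CPM in clone 3 and 9.32 and 10.8 CPM in clone 5, against 129 and 128 CPM in control clone 2 and 168 and 173 CPM in control clone 7. The ranges of the sides were far apart in both clone kinds, and the log2 fold change was -4.16 ± 0.73 (SE; adjusted p = 0.0339), with adjusted p = 0.0528 when the clone kind was a term. Matk, a kinase that restrains Src family kinases, stood at 5.23 and 6.16 CPM in clone 3 and 6.49 and 4.31 CPM in clone 5, against 37.3 and 42.7 CPM in control clone 2 and 60.7 and 66.9 CPM in control clone 7, with a log2 fold change of -3.28 ± 0.29 (SE; adjusted p = 0.0212). It differed by -1.46 at day 0 (log2, adjusted p = 1) and its net change of -1.70 ± 0.68 (SE; adjusted p = 0.134) did not pass the test. Tifab, a restraint on TRAF6 signalling in blood cells, stood at 116 and 114 CPM in clone 3 and 122 and 121 CPM in clone 5, against 412 and 404 CPM in control clone 2 and 563 and 556 CPM in control clone 7. The clones of shOgdh2081 were nearly equal for Tifab, and the log2 fold change was -2.06 ± 0.21 (SE; adjusted p = 0.0212). Apba1, a synaptic adaptor protein, P2rx3, an ATP-gated channel, and B3gnt5, a glycolipid-making transferase, had log2 fold changes of -5.16, -3.26 and -3.01, all from control levels under 30 CPM. Apba1 differed by -1.09 at day 0 (log2, not called), and its net change was -3.92 ± 0.43 (SE; adjusted p = 6.47e-04). P2rx3 had adjusted p = 0.0736 with the clone kind as a term, and its pair differences were -1.33 and -3.87. Hfe, an iron-uptake regulator, Bex6 and Thbd, the thrombin receptor thrombomodulin, followed at -2.30, -2.87 and -2.06. The remaining large falls, Pycr1 and Cth, are described with amino acid metabolism.

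**Figure D4:**
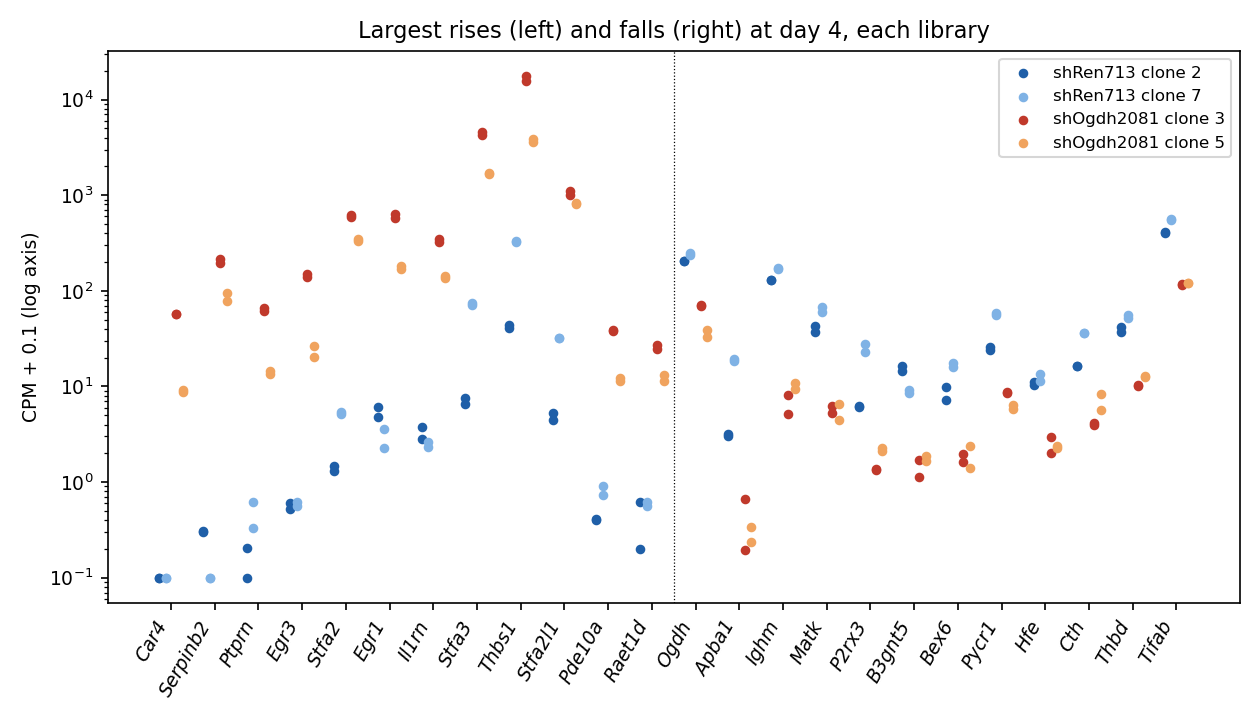
The 12 largest rises (left) and 12 largest falls (right) by name, with each day 4 library as a point coloured by clone (CPM plus 0.1, log axis). The genes were chosen among those whose 4 shOgdh2081 libraries lie wholly above or wholly below the 4 control libraries, so this separation is given by the choice. Car4 is at 0 in all control libraries.

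Among the OGDH complex and the TCA cycle, falls outnumbered rises and were mostly small. Of 9 tested genes of the complex and of lipoylation, Ogdh was the only one called. Dlst, the succinyltransferase subunit of the complex, had a log2 difference of 0.60 ± 0.19 (SE; adjusted p = 0.0854), and Dld, the shared dihydrolipoamide dehydrogenase, one of 0.00 ± 0.13 (SE; adjusted p = 0.998). Of 22 genes of the TCA cycle and its side branches, 6 were lower (27.3%, against 6.78% of all tested genes) and 0 higher, with a median log2 fold change of -0.31. Pcx, pyruvate carboxylase, which feeds oxaloacetate into the cycle, stood at 5.44 and 4.74 CPM in clone 3 and 7.30 and 6.59 CPM in clone 5, against 16.9 and 18.2 CPM in control clone 2 and 16.2 and 21.3 CPM in control clone 7, with -1.61 ± 0.25 (SE; adjusted p = 0.0287). The lower genes included 2 of steps after succinyl-CoA: Suclg2, a subunit of succinyl-CoA synthetase (-0.94), and Fh1, fumarase (-0.80). Mdh1, the cytosolic malate dehydrogenase and so outside the mitochondrial cycle, was lower too (-0.74). Idh2 and Idh3g, subunits of enzymes that make 2-oxoglutarate, had log2 fold changes of -0.54 and -0.61. Citrate synthase, Cs, had a log2 difference of -0.27 that did not pass the test.

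Serine and one-carbon genes and amino acid genes had falls and no rises among called members. Of 17 tested serine and one-carbon genes 8 were lower (47.1%, against 6.78% of all tested genes), 0 higher and 9 not called, with a median log2 fold change of -1.0007. Of 22 amino acid genes 8 were lower (36.4%), 0 higher and 14 not called, with a median of -0.51 and with 9 members above 0. Shmt2, the mitochondrial serine hydroxymethyltransferase, stood at 197 and 207 CPM in clone 3 and 157 and 167 CPM in clone 5, against 499 and 504 CPM in control clone 2 and 525 and 553 CPM in control clone 7. The highest shOgdh2081 library was below the lowest control library by a wide margin, and the log2 fold change was -1.55 ± 0.17 (SE; adjusted p = 0.0212). Psat1, of serine synthesis, and Mthfd2 and Mthfd1, of the folate cycle, had log2 fold changes of -1.29, -1.001 and -0.77. Aldh18a1 and Pycr1, the first and the last enzyme on the way from glutamate to proline, had log2 fold changes of -1.22 ± 0.18 (SE; adjusted p = 0.0275) and -2.53 ± 0.55 (SE; adjusted p = 0.0443). Cth, which makes cysteine from cystathionine, stood at 4.05 and 3.88 CPM in clone 3 and 8.24 and 5.63 CPM in clone 5, against 16.4 and 16.1 CPM in control clone 2 and 36.1 and 35.9 CPM in control clone 7. Its fall was larger in the clone 3 pair (-3.03) than in the clone 5 pair (-1.17), its log2 fold change was -2.30 ± 0.53 (SE; adjusted p = 0.0466), and with the clone kind as a term adjusted p was 0.0735. Asns, asparagine synthetase, stood at 69.2 and 67.8 CPM in clone 3 and 61.1 and 64.3 CPM in clone 5, against 208 and 196 CPM in control clone 2 and 283 and 271 CPM in control clone 7, with -1.89 ± 0.27 (SE; adjusted p = 0.0273). Gpt2 and Oat, which pass nitrogen between glutamate and alanine or ornithine, had log2 fold changes of -1.24 and -0.98.

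Many of these genes are targets of ATF4, the transcription factor of the amino acid response. Of 41 tested genes of the ATF4 list, which shares members with the lists above, 20 were lower (48.8%, against 6.78% of all tested genes). A further 4 were higher (9.76%, against 7.04%), and the median log2 fold change was -0.80. Without shOgdh2081 clone 5 the count of lower genes was 2, and without any other 1 clone it was 0. Atf4 itself stood at 449 and 426 CPM in clone 3 and 347 and 334 CPM in clone 5, against 601 and 591 CPM in control clone 2 and 614 and 605 CPM in control clone 7 and was lower, with -0.66 ± 0.14 (SE; adjusted p = 0.0395), as was its relative Atf5 (-0.81). Pck2, the mitochondrial phosphoenolpyruvate carboxykinase, had a log2 fold change of -1.74 ± 0.24 (SE; adjusted p = 0.0264), and Chac1, which degrades glutathione, one of -1.65 ± 0.25 (SE; adjusted p = 0.0287). The tRNA synthetase genes Cars, Mars, Gars and Nars had log2 fold changes of -0.85, -0.98, -0.85 and -0.80, and the amino acid transporters Slc7a5, Slc7a1 and Slc1a5 of -1.14, -0.76 and -0.55. Trib3 and Ddit3, other ATF4 targets, did not pass the test (-0.21 and 0.54). The 4 higher members were Slc7a11, Ddit4, Ppp1r15a and Sesn2, with log2 fold changes of 5.15, 0.98, 1.03 and 0.44. Slc7a11, the cystine importer, stood at 888 and 856 CPM in clone 3 and 375 and 372 CPM in clone 5, against 15.4 and 15.7 CPM in control clone 2 and 20.5 and 17.04 CPM in control clone 7, so that it moved against most of the list in both clone kinds (4.54 and 5.50, with 5.15 ± 0.67 (SE; adjusted p = 0.0263) in the fit).

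Promoter letters of this list were read from RefSeq windows (GRCm38.p6) of 250 bases before to 50 bases after a start site. Of the 41 members 32 had a window, and 12 of these (37.5%) held TGATGNAA, the core of the composite element that ATF4 binds with C/EBP proteins, on either strand; 280 of 9771 tested genes with a window held it (2.87%), as did 3.97% of all 32851 windows. Among the members called lower it was 5 of 14. The stretches around the match are shown for 3 lower genes and for Slc7a11, with the match in capitals, read 5′ to 3′ on the gene's strand and cut at the start site.
Asns promoter, chr6:7693210-7693272, minus strand: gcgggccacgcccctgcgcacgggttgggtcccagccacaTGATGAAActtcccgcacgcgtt
Pck2 promoter, chr14:55540123-55540210, plus strand: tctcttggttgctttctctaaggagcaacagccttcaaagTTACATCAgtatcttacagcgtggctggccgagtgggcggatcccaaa
Pycr1 promoter, chr11:120643804-120643891, minus strand: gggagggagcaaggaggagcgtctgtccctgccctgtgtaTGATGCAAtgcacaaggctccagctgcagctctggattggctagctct
Slc7a11 promoter, chr3:50443632-50443719, minus strand: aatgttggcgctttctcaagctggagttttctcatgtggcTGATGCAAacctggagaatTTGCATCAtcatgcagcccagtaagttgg
The match begins 23 bases before the start site in Asns and 103 bases before it in Pck2 and Pycr1. Slc7a11 holds 2 matches in opposite orientation, the first 66 bases before its start. The letters were thus present in list members that fell and in the member that rose most. A match describes letters only and is neither a binding site nor a cause of a change.

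Of 28 tested NRF2, glutathione and thioredoxin genes 6 were higher (21.4%, against 7.04% of all tested genes) and 0 lower. The median, however, was -0.01 and its sign changed in 13 of 21 alternative settings. Beside Slc7a11, the members called higher were Hmox1, Prdx5, Txnrd1, Srxn1 and Nqo1. Hmox1, the heme-degrading oxygenase, stood at 127 and 132 CPM in clone 3 and 116 and 122 CPM in clone 5, against 18.3 and 19.05 CPM in control clone 2 and 18.7 and 18.8 CPM in control clone 7. Libraries of 1 side lay close together, and the log2 fold change was 2.70 ± 0.27 (SE; adjusted p = 0.0212). Prdx5, a peroxiredoxin, stood at 857 and 833 CPM in clone 3 and 805 and 757 CPM in clone 5, against 374 and 377 CPM in control clone 2 and 338 and 339.6 CPM in control clone 7, with 1.16 ± 0.12 (SE; adjusted p = 0.0212). Nqo1 was under 2.1 CPM in every library. Of 14 heme genes 2 were higher and 2 lower (14.3% each, against 7.04% and 6.78% of all tested genes). Alas1, which joins succinyl-CoA and glycine in the first step of heme synthesis, stood at 1429 and 1544 CPM in clone 3 and 848 and 921 CPM in clone 5, against 399.8 and 423 CPM in control clone 2 and 532 and 580.3 CPM in control clone 7, with 1.25 ± 0.29 (SE; adjusted p = 0.047). Uros, a later enzyme of the same pathway, had a log2 fold change of -0.82.

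Few energy genes outside the TCA cycle were called. Of 23 glycolysis and lactate genes 13 separated the sides upward without overlap (against 23.5% of all tested genes), with a median log2 fold change of 0.24. Called higher were 2 (8.70%, near the 7.04% of all tested genes), and 0 were called lower. The higher ones were the glucose transporter Slc2a1 (1.15 ± 0.22 (SE; adjusted p = 0.0353)) and pyruvate kinase Pkm (0.62 ± 0.15 (SE; adjusted p = 0.0475)). Lactate dehydrogenase, Ldha, had 0.55 ± 0.20 (SE; adjusted p = 0.119) and did not pass the test. Of 40 nuclear-encoded respiratory chain subunits all had a log2 difference below 0, with a median of -0.34, and 26 separated the sides downward without overlap (against 23.3% of all tested genes). Only 2 passed the test (5.00%, against 6.78% of all tested genes), Ndufv1 (-0.67) and Ndufa5 (-0.81) of complex I. None of the 7 tested mitochondrial DNA transcripts was called. Of 22 cholesterol genes 3 were lower (13.6%, against 6.78% of all tested genes) and 0 were higher, with a median of -0.47. The lower ones include Mvk, mevalonate kinase (-1.27), and Stard4 (-0.58).

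The genes of 2-oxoglutarate-dependent dioxygenases, the enzymes that use OGDH's substrate, gave 7 higher and 0 lower of 36 tested, around a median of 0.06. The share called higher was 19.4%, against 7.04% of all tested genes. All 7 called members either demethylate or hydroxylate proteins. Kdm6b, an H3K27 demethylase, stood at 137 and 149.5 CPM in clone 3 and 130.1 and 137 CPM in clone 5, against 63.8 and 52.1 CPM in control clone 2 and 52.4 and 54.3 CPM in control clone 7, with 1.28 ± 0.16 (SE; adjusted p = 0.0218). P4ha1, a collagen prolyl hydroxylase subunit, stood at 404 and 396 CPM in clone 3 and 224 and 238 CPM in clone 5, against 81.9 and 86.2 CPM in control clone 2 and 103 and 106 CPM in control clone 7, with 1.71 ± 0.28 (SE; adjusted p = 0.0309). For both genes the 4 libraries of each side were well apart, and the pair differences of clones 5 and 3 were 1.20 and 1.42 for Kdm6b. Kdm7a and Kdm3a, H3K9 demethylase family members, had log2 fold changes of 1.47 and 0.83. Kdm4c, Kdm5a and Jmjd6 rose by less, with 0.46, 0.42 and 0.49. Tet2, Tet3 and the oxygen sensor Egln3 had log2 differences of -0.19, 0.01 and -0.00 that did not pass the test.

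**Figure D5:**
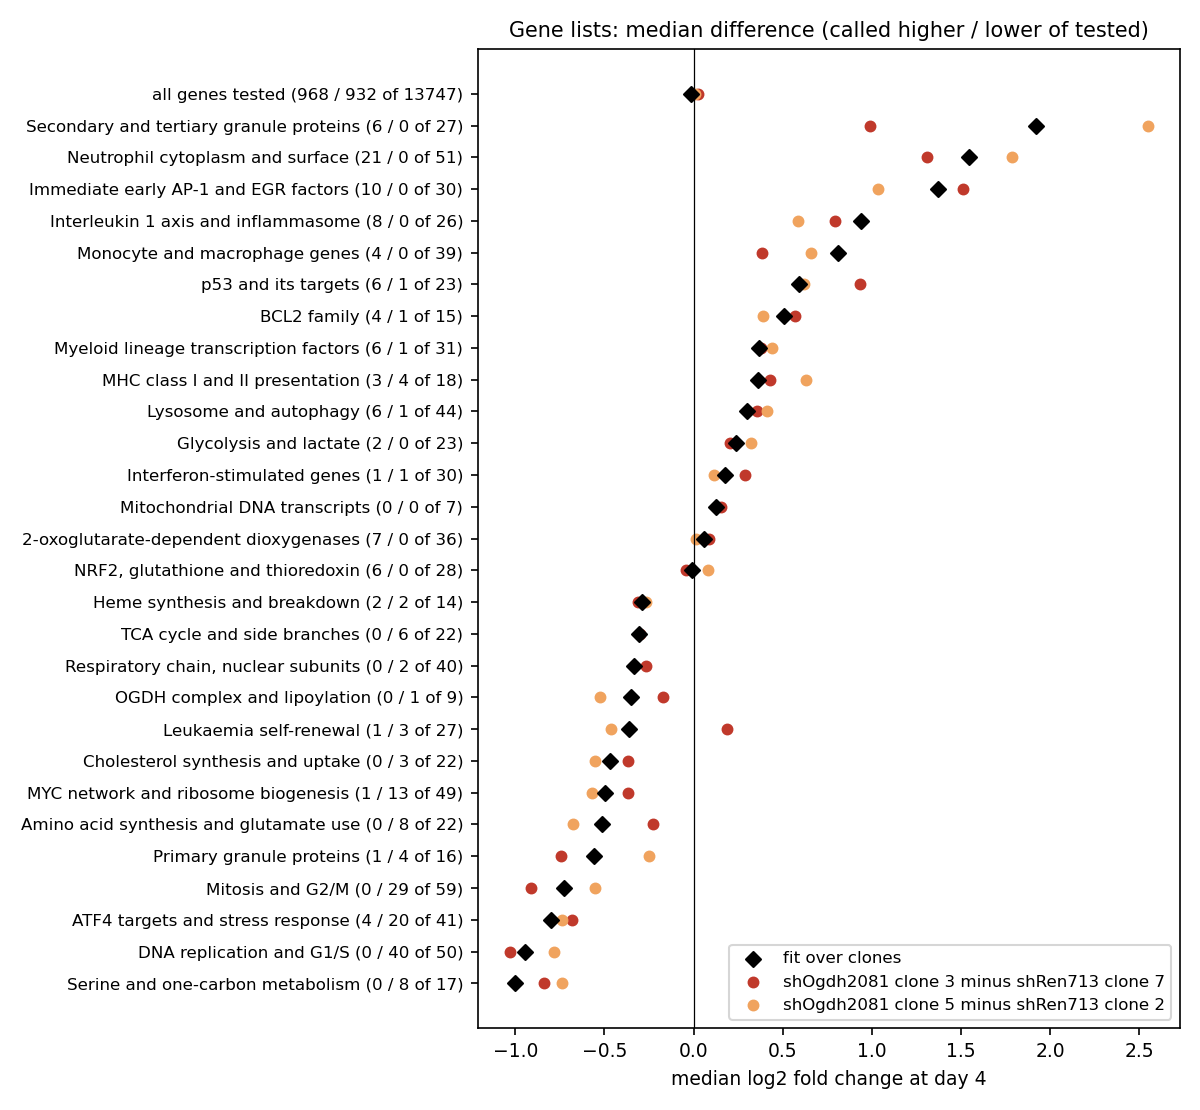
Median log2 fold change of each gene list at day 4, from the fit over clones (diamonds) and within each clone kind (circles); in parentheses, members called higher and lower of those tested. Replication, serine and ATF4 lists lie at the low end, with all genes tested near 0. Neutrophil, secondary and tertiary granule and immediate early lists lie at the high end, while the primary granule list lies below 0.

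Replication genes held the largest share of falls among the 36 lists. Of 50 tested genes of DNA replication and G1/S, 40 were lower and 0 higher (80.0%, against 6.78% of all tested genes), 47 had no overlap between the sides (against 23.3%), and the median log2 fold change was -0.95. Cdc6, which loads the replicative helicase, stood at 49.5 and 54.0 CPM in clone 3 and 54.3 and 55.3 CPM in clone 5, against 137 and 131 CPM in control clone 2 and 125 and 119.7 CPM in control clone 7. The control libraries were all above 110 CPM and the shOgdh2081 libraries all under 60 CPM, and the log2 fold change was -1.30 ± 0.11 (SE; adjusted p = 0.0212). Mcm7, a helicase subunit, stood at 182 and 198 CPM in clone 3 and 209 and 218 CPM in clone 5, against 483 and 495 CPM in control clone 2 and 467 and 494 CPM in control clone 7, with -1.30 ± 0.15 (SE; adjusted p = 0.0212). Dut, Tk1 and Rrm2, of nucleotide supply, had log2 fold changes of -1.13, -1.16 and -1.08, and Gins1, of the helicase complex, had -1.53. Within the clone kinds the list's median was -0.78 for the clone 5 pair and -1.03 for the clone 3 pair.

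Of 59 mitosis and G2/M genes 29 were lower (49.2%, against 6.78% of all tested genes) and 0 higher, with a median log2 fold change of -0.73. Of them 51 separated the sides downward without overlap (against 23.3% of all tested genes). Ccna2, cyclin A2, stood at 95.1 and 86.9 CPM in clone 3 and 111 and 94.9 CPM in clone 5, against 215 and 208 CPM in control clone 2 and 223 and 207 CPM in control clone 7, with -1.16 ± 0.10 (SE; adjusted p = 0.0212). Cenpf, a kinetochore protein, Racgap1, of cytokinesis, and Ccnb1, cyclin B1, had log2 fold changes of -1.27, -1.07 and -0.88. The list median was -0.55 in the clone 5 pair and -0.91 in the clone 3 pair. Leaving out 1 clone moved the count of lower genes from 0 to 37 for the replication list and from 0 to 49 for this one: all calls went without either control clone or without shOgdh2081 clone 3.

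Many mitotic promoters hold common letters, and those of 3 genes that fell are shown. TTTGAA, the core of the cell cycle homology region, lay on either strand in 35 of 49 tested members with a window (71.4%), against 1415 of 9771 tested genes (14.5%) and 17.9% of all windows. CCAAT, which can overlap it by at most 1 base, was found in 36 of 49 (73.5%), against 43.1% of tested genes and 37.4% of all windows. Capitals mark TTTGAA, and each stretch is cut at the start site.
Cdc20 promoter, chr4:118437344-118437401, minus strand: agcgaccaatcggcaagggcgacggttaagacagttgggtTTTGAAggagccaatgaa
Espl1 promoter, chr15:102296226-102296292, plus strand: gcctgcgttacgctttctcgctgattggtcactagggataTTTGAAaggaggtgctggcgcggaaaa
Ccnb2 promoter, chr9:70421676-70421761, minus strand: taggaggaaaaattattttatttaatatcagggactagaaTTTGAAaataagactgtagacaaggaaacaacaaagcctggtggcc
The match begins 18, 27 and 167 bases before the start site. Cdc20, an activator of the anaphase-promoting complex, had a log2 fold change of -0.82 ± 0.13 (SE; adjusted p = 0.0298), Espl1, separase, one of -0.90 ± 0.13 (SE; adjusted p = 0.0279), and Ccnb2, cyclin B2, one of -1.29 ± 0.15 (SE; adjusted p = 0.0212). Of the 24 lower members with a window 17 held TTTGAA (70.8%), a share close to that of the whole list.

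Of 49 tested genes of the MYC network and of ribosome biogenesis 13 were lower (26.5%, against 6.78% of all tested genes) and 1 higher, with a median of -0.49. The higher one was Mxd1, a MYC antagonist that comes up in maturing myeloid cells, which stood at 109 and 106 CPM in clone 3 and 93.9 and 88.7 CPM in clone 5, against 40.1 and 37.5 CPM in control clone 2 and 35.2 and 33.9 CPM in control clone 7, with 1.41 ± 0.14 (SE; adjusted p = 0.0212). Myc itself had -0.36 ± 0.18 (SE; adjusted p = 0.212), and did not pass the test. Polr1b, of RNA polymerase I, and the nucleolar genes Utp20 and Gar1 had log2 fold changes of -0.86, -0.88 and -0.92. Of 23 p53 pathway genes 6 were higher (26.1%, against 7.04% of all tested genes) and 1, Trp53 itself, lower (-0.46). Trp53inp1, a p53-induced regulator of cell death and autophagy, stood at 91.9 and 87.7 CPM in clone 3 and 109.7 and 109 CPM in clone 5, against 24.5 and 21.3 CPM in control clone 2 and 22.5 and 18.9 CPM in control clone 7, with 2.17 ± 0.20 (SE; adjusted p = 0.0212). Cdkn1a, the cell cycle inhibitor p21, stood at 584 and 603 CPM in clone 3 and 402 and 403 CPM in clone 5, against 157 and 162 CPM in control clone 2 and 109 and 104 CPM in control clone 7, with 1.87 ± 0.31 (SE; adjusted p = 0.0311). Mdm2 and Gadd45a had log2 fold changes of 1.24 and 1.16. In the BCL2 family, 4 of 15 were higher (26.7%, against 7.04% of all tested genes) and 1 lower (6.67%, against 6.78%). Bcl2l11, which encodes the death-promoting protein BIM, stood at 229 and 238 CPM in clone 3 and 129 and 128 CPM in clone 5, against 27.03 and 29.7 CPM in control clone 2 and 24.8 and 25.7 CPM in control clone 7, with 2.72 ± 0.30 (SE; adjusted p = 0.0212). The survival gene Bcl2l1 was higher (1.37 ± 0.20 (SE; adjusted p = 0.0281)) and the survival gene Bcl2 lower (-0.79 ± 0.19 (SE; adjusted p = 0.0483)), while Bcl2a1b and Bcl2a1d, near-identical copies, were under 5.2 CPM throughout.

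Immediate early genes, which respond within minutes to growth and stress signals, gave 10 higher (33.3%, against 7.04% of all tested genes) and 0 lower of 30 tested. Their median log2 fold change was 1.37, and 21 of them separated the sides upward without overlap (against 23.5% of all tested genes). Egr1 stood at 578 and 631 CPM in clone 3 and 171 and 184 CPM in clone 5, against 4.73 and 6.05 CPM in control clone 2 and 3.46 and 2.17 CPM in control clone 7. Jun and Jund, AP-1 subunits, had log2 fold changes of 2.30 ± 0.38 (SE; adjusted p = 0.0309) and 1.81 ± 0.34 (SE; adjusted p = 0.0351). Fos, their partner, ran from 13.2 to 17.97 CPM in shOgdh2081 and from 7.36 to 13.3 CPM in the control and did not pass the test (0.59 ± 0.77 (SE; adjusted p = 0.623)). Dusp5 and Spry4, feedback inhibitors of ERK signalling, and Ier5 had log2 fold changes of 1.90, 3.42 and 2.26, although Spry4 stayed under 3 CPM. Set against the control mean, the list's median was 1.72 for clone 3 and 0.90 for clone 5.

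Transcription factors of the myeloid lineage gave 6 higher (19.4%, against 7.04% of all tested genes) and 1 lower (3.23%, against 6.78%) of 31. Cebpe, which drives late granulocyte maturation, stood at 339 and 364 CPM in clone 3 and 372 and 391.5 CPM in clone 5, against 159 and 165 CPM in control clone 2 and 124 and 122 CPM in control clone 7, with 1.33 ± 0.18 (SE; adjusted p = 0.0248). Spi1, which encodes PU.1, was higher by 0.54 ± 0.10 (SE; adjusted p = 0.0318). Klf6, Bach1, Ikzf1 and Gata2 had log2 fold changes of 2.45, 1.38, 0.63 and 1.31 (Gata2 had adjusted p = 0.0585 with the clone kind as a term), and Runx3 was lower (-0.50). Cebpa and Gfi1, factors of the granulocyte precursor, did not pass the test (-0.32 and 0.53).

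Neutrophil genes held the largest count of rises among the 36 lists. Of 51 tested genes of neutrophil cytoplasm and surface 21 were higher and 0 lower (41.2%, against 7.04% of all tested genes), 38 separated the sides upward without overlap (against 23.5%), and the median log2 fold change was 1.54. Without shOgdh2081 clone 5 the count of higher genes was 10, and without any other 1 clone it was 0. Itgam, the integrin CD11b, stood at 571 and 592 CPM in clone 3 and 433 and 439 CPM in clone 5, against 129 and 123 CPM in control clone 2 and 132 and 129 CPM in control clone 7, with 1.95 ± 0.15 (SE; adjusted p = 0.0209). Its partner Itgb2 had 1.53 ± 0.13 (SE; adjusted p = 0.0212), and the Fc receptor Fcgr4 2.29 ± 0.20 (SE; adjusted p = 0.0212). C5ar1, the complement C5a receptor, stood at 41.5 and 40.3 CPM in clone 3 and 23.5 and 30.8 CPM in clone 5, against 0.105 and 0.302 CPM in control clone 2 and 1.78 and 1.37 CPM in control clone 7, with 5.23 ± 0.76 (SE; adjusted p = 0.0287). In these genes both clone kinds gave like differences, for Itgam 1.78 and 2.15. S100a8 and S100a9, the calprotectin subunits, did not pass the test although no library overlapped. S100a9 stood at 3837 and 3624 CPM in clone 3 and 6583 and 6359.8 CPM in clone 5, against 79.8 and 78.4 CPM in control clone 2 and 512 and 493 CPM in control clone 7, with 4.10 ± 1.04 (SE; adjusted p = 0.0593). The difference was 6.35 in the clone 5 pair and 2.89 in the clone 3 pair.

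Granule genes are made at different stages of maturation, and the lists of early and late granules were not tested against each other. Of 16 primary granule genes, made by promyelocytes, 4 were lower, 1 higher and 11 not called, with a median of -0.56 and 6 members above 0. The share called lower was above the 6.78% of all tested genes. The share called higher, 6.25%, was near the 7.04% of all tested genes. Elane, neutrophil elastase, stood at 624 and 633 CPM in clone 3 and 719 and 744 CPM in clone 5, against 1314 and 1335 CPM in control clone 2 and 2012 and 2111 CPM in control clone 7, with -1.34 ± 0.24 (SE; adjusted p = 0.0326). Ctsg, cathepsin G, had -0.96 ± 0.17 (SE; adjusted p = 0.0331). Mpo, myeloperoxidase, stood at 399 and 509 CPM in clone 3 and 2671 and 3399.7 CPM in clone 5, against 4073 and 4891 CPM in control clone 2 and 2833 and 3324 CPM in control clone 7. Clone 3 was the lowest for Mpo, the clone 5 libraries overlapped those of control clone 7, and the test was not passed (-1.13 ± 0.88 (SE; adjusted p = 0.412)). Lyz2, another member, was higher in every shOgdh2081 library than in any control library but did not pass the test. Its values are given with the monocyte genes. Of 27 secondary and tertiary granule genes, made by later stages, 6 were higher (22.2%, against 7.04% of all tested genes), 0 lower and 21 not called. Their median was 1.92. Adam8, a surface protease, stood at 1365 and 1499 CPM in clone 3 and 718 and 773 CPM in clone 5, against 44.4 and 48.6 CPM in control clone 2 and 90.6 and 106 CPM in control clone 7, with 3.86 ± 0.57 (SE; adjusted p = 0.0294). Anxa1 and Wfdc21 had log2 fold changes of 1.92 and 3.51. Ngp and Ltf, secondary granule genes, differed between clones of 1 hairpin. Ngp stood at 168 and 177 CPM in clone 3 and 1460.0 and 1501 CPM in clone 5, against 16.8 and 19.05 CPM in control clone 2 and 80.2 and 86.2 CPM in control clone 7, and Ltf, lactoferrin, at 37.0 and 40.2 CPM in clone 3 and 191 and 206 CPM in clone 5, against 1.89 and 3.53 CPM in control clone 2 and 16.5 and 21.8 CPM in control clone 7. Control clone 7 was above control clone 2 for both, so that the pair differences were 6.33 and 1.05 for Ngp and 5.96 and 0.99 for Ltf, and neither passed the test (4.01 ± 1.26 (SE; adjusted p = 0.0915) and 3.43 ± 1.38 (SE; adjusted p = 0.149)). Lcn2, lipocalin 2, had 4.36 ± 1.05 (SE; adjusted p = 0.053) and Camp, the cathelicidin, 2.47 ± 1.38 (SE; adjusted p = 0.263). TTGCNNAA, a C/EBP element, lay in the promoter windows of 9 of 24 granule genes (37.5%) and 8 of 39 neutrophil genes (20.5%), against 10.3% of tested genes and 10.8% of all windows, and in 2 of 5 granule genes and 2 of 17 neutrophil genes that were called higher and had a window. It can overlap TGATGNAA in part.

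Of 39 tested monocyte and macrophage genes 4 were higher (10.3%, near the 7.04% of all tested genes) and 0 lower, with a median of 0.81 in the fit and of 0.66 and 0.38 in the clone 5 and clone 3 pairs. Ccl6, a myeloid chemokine, stood at 211 and 208 CPM in clone 3 and 197 and 183 CPM in clone 5, against 3.47 and 3.02 CPM in control clone 2 and 9.43 and 8.23 CPM in control clone 7, with 5.02 ± 0.49 (SE; adjusted p = 0.0212). Cd14, the lipopolysaccharide co-receptor, stood at 574 and 573 CPM in clone 3 and 159 and 163 CPM in clone 5, against 31.3 and 29.3 CPM in control clone 2 and 20.3 and 21.7 CPM in control clone 7, with 3.804 ± 0.64 (SE; adjusted p = 0.0318). Lgals3 and Cd300lf had log2 fold changes of 3.66 and 2.69. Lyz2, lysozyme, was counted in the primary granule list and not in this one. It stood at 6931 and 6494 CPM in clone 3 and 2639.9 and 2496 CPM in clone 5, against 212 and 208 CPM in control clone 2 and 904 and 842 CPM in control clone 7 and did not pass the test (3.06 ± 0.82 (SE; adjusted p = 0.0654)). Csf1r, the receptor of the monocyte growth factor, had -1.15 ± 0.58 (SE; adjusted p = 0.225). In the interleukin 1 list, 8 of 26 were higher (30.8%, against 7.04% of all tested genes) and 0 lower, with a median of 0.94. Beside Il1rn, they include the decoy receptor Il1r2 (3.23), the restraints Irak3 (1.46 ± 0.17 (SE; adjusted p = 0.0212)) and Nfkbia (1.55 ± 0.16 (SE; adjusted p = 0.0212)) and the co-activator Nfkbiz (2.76 ± 0.41 (SE; adjusted p = 0.0284)). Il1b itself stood at 20.7 and 19.9 CPM in clone 3 and 2.57 and 4.31 CPM in clone 5, against 0.421 and 0 CPM in control clone 2 and 0.105 and 0.343 CPM in control clone 7 and narrowly missed the threshold (5.75 ± 1.38 (SE; adjusted p = 0.0533)). Of 30 interferon-stimulated genes 1 was higher, Oas2 (2.48), and 1 lower, Stat2 (-0.44), or 3.33% each against 7.04% and 6.78% of all tested genes.

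Of 44 lysosome and autophagy genes 6 were higher (13.6%, against 7.04% of all tested genes) and 1 lower (2.27%, against 6.78%). Sqstm1, the autophagy receptor p62, stood at 379 and 390.2 CPM in clone 3 and 363 and 381 CPM in clone 5, against 133 and 127 CPM in control clone 2 and 115 and 119 CPM in control clone 7, with 1.59 ± 0.11 (SE; adjusted p = 0.0209). The autophagosome proteins Gabarap and Gabarapl2 and the lysosomal regulator Tfe3 had log2 fold changes of 0.62, 0.66 and 0.76. Of 18 tested antigen presentation genes 11 were not called, 4 were lower (22.2%, against 6.78% of all tested genes) and 3 higher (16.7%, against 7.04%). The immunoproteasome subunits Psmb8, Psmb9 and Psmb10 and the peptide transporter Tap2 were lower (-0.87, -1.19, -1.17 and -0.88), and H2-T23, Cd74 and the co-stimulator Cd80 were higher. H2-T23 had a log2 fold change of 1.23, and Cd74 stayed under 1.5 CPM in every library. Cd80 stood at 53.5 and 48.1 CPM in clone 3 and 32.7 and 29.9 CPM in clone 5, against 6.41 and 7.06 CPM in control clone 2 and 6.29 and 5.72 CPM in control clone 7, with 2.67 ± 0.35 (SE; adjusted p = 0.0242).

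Genes of leukaemia self-renewal were mostly not called, with 3 lower and 1 higher of 27 and a median of -0.36. The shares were 11.1% lower and 3.70% higher, against 6.78% and 7.04% of all tested genes. The list's median was -0.46 in the clone 5 pair and 0.18 in the clone 3 pair, and that of the net change was -0.06. The sign of the day 4 median changed in 1 of 21 alternative settings. Hmgb3, a chromatin protein of early blood cells, stood at 20.6 and 19.8 CPM in clone 3 and 16.3 and 19.6 CPM in clone 5, against 51.1 and 50.6 CPM in control clone 2 and 51.4 and 52.6 CPM in control clone 7, with -1.45 ± 0.12 (SE; adjusted p = 0.0209). Cbx5, which encodes heterochromatin protein 1 alpha, was lower (-0.72 ± 0.14 (SE; adjusted p = 0.0368)) and Sox4 higher (0.88 ± 0.09 (SE; adjusted p = 0.0212)). The Mll-Af9 target genes Hoxa9 and Meis1 had log2 differences of 0.39 and -0.40, and Myb one of 0.13, none of which passed the test. Hoxa9 stood at 225 and 223 CPM in clone 3 and 189 and 194 CPM in clone 5, against 209.8 and 219.5 CPM in control clone 2 and 96.9 and 96.1 CPM in control clone 7, so that control clone 7 was the low one. Of 14 genes that mark myeloid leukaemia identity, 6 were higher (42.9%, against 7.04% of all tested genes) and 0 lower. Among the higher ones were Cd33 (1.76 ± 0.23 (SE; adjusted p = 0.0244)), the pan-leukocyte gene Ptprc (0.95 ± 0.15 (SE; adjusted p = 0.0288)) and the cytokine receptor subunit Csf2rb (1.00 ± 0.12 (SE; adjusted p = 0.0218)), and each was well expressed on both sides.

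Markers of other cells were read as lists, most of whose members were at few or no counts. Of 16 T and NK cell markers 3 passed the filter on low counts and 0 were called; their summed level ran from 4.05 to 9.34 CPM in shOgdh2081 and from 0.94 to 3.05 CPM in the control, and Cd3e, Cd4, Thy1, Ncr1 and Gzma had 0 counts in all 8 libraries. Of 12 B cell markers 3 were tested, with Ighm lower and Cd22 higher (1.08 CPM at most); the sum ran from 7.58 to 12.6 against 128.9 to 173.8 CPM, nearly all of it Ighm, and Ms4a1, Blk and Rag1 had 0 counts. Of 14 erythroid markers 3 were tested and 0 called, with sums of 327 to 435 and 351 to 399.8 CPM and with Hba-a2 and Hbb-bs at 0. Of 12 megakaryocyte markers 7 were tested and 2 were higher, Itga2b (3.87 ± 0.64 (SE; adjusted p = 0.0316)) and Gp1bb (under 2.4 CPM), with sums of 132 to 238 against 54.9 to 61.6 CPM. Of 14 mast cell, basophil and eosinophil markers 7 were tested and 2 were higher, Gata2 and Hdc, the histamine-making enzyme, with sums of 1177 to 1219 against 168 to 335 CPM. Hdc stood at 1016 and 993 CPM in clone 3 and 1008 and 993 CPM in clone 5, against 248 and 244 CPM in control clone 2 and 101 and 101 CPM in control clone 7, and its net change of 2.37 ± 0.76 (SE; adjusted p = 0.0845) did not pass the test. Fcer1a, Tpsb2, Ear1, Ear2 and Prss34 had 0 counts. Of 12 dendritic cell markers 3 were tested and 0 called, with sums of 36.2 to 95.3 against 33.9 to 40.8 CPM. Of 18 stromal markers 6 were tested and 3 were higher, Col5a1 (37.8 and 40.5 CPM in clone 3 and 11.1 and 11.5 CPM in clone 5, against 0.105 and 1.31 CPM in control clone 2 and 0.839 and 1.37 CPM in control clone 7), Acta2 and Col1a1 (under 1.1 CPM), with sums of 395 to 450.1 against 315 to 342 CPM, and Col1a2, Col3a1, Dcn and Lum had 0 counts. Over the 8 libraries Pecam1 held 27377 counts and Pdgfrb, the next stromal marker, 2668. Tfrc held 30728 counts and Klf1, the next erythroid marker, 76, so the sums of these lists are mostly those of 1 gene each. Over all tested genes 7.04% were higher and 6.78% lower. The part of these markers in the results was not tested.

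The 2 shOgdh2081 clones differed from each other by more than 2-fold in 164 of 7374 well-measured genes (2.22%), and the 2 control clones in 172 (2.33%). Among genes with at least 20 CPM, those highest in clone 3 over clone 5 included Dsp, Ccdc80, Iqcg and Ptgs2. Ptgs2, the inducible prostaglandin synthase, stood at 44.7 and 45.6 CPM in clone 3 and 3.38 and 3.59 CPM in clone 5, against 0 and 0.101 CPM in control clone 2 and 0.419 and 0 CPM in control clone 7. It was high in clone 3 only, and its log2 fold change of 7.41 ± 1.93 (SE; adjusted p = 0.0631) did not pass the test. Those highest in clone 5 were Sec16b, Ddx3y, Kdm5d, Ryr2 and Uty. Sec16b, of endoplasmic reticulum exit sites, had 0 counts in clone 3, 140.2 CPM in clone 5 and 4.31 and 37.9 CPM in control clones 2 and 7, and was 66.0 CPM in clone 5 at day 0. It was therefore at least 1489-fold higher in clone 5 than in clone 3 against a floor of 3 counts.

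Before doxycycline few genes were called between the same clones, although 100 were called higher and 83 lower without the low-count filter. With 2 clones a side, a missed call does not show that the clones were alike. At day 0, 0 of 13125 genes were called in edgeR's test in either direction, with 225 (1.71%) at an unadjusted p under 0.05, and DESeq2 called 1 higher and 1 lower. Of the genes higher at day 4, 826 could be tested at day 0, with a median log2 difference of 0.04 there, and 19 already differed by more than 2-fold in the same direction. Of the genes lower at day 4, 931 could be tested, with a median of -0.02 and 4 such genes. For the net change, 1933 of 14249 genes (13.6%) were higher and 2025 (14.2%) lower. At day 0 the libraries shifted with their replicate number. With libraries as replicates and that number as a block within each day, a fit chosen after the data were seen, the counts were 3319 and 3495. They were 2825 and 2973 without that block, and both fits treat libraries of 1 clone as independent. Without a block for the clone the counts were 504 and 708, without control clone 2 they were 738 and 625, and without control clone 7 they were 591 and 527. Hmox1 had a net change of 2.46 ± 0.11 (SE; adjusted p = 1.78e-05), Itgam one of 1.92 ± 0.13 (SE; adjusted p = 9.74e-05), Asns one of -1.76 ± 0.14 (SE; adjusted p = 1.81e-04) and Cdc6 one of -1.21 ± 0.11 (SE; adjusted p = 3.05e-04).

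Against the second Ogdh hairpin at the same day, 0 of 13747 genes were called in edgeR's test (1002, or 7.29%, at an unadjusted p under 0.05). A call missed between 4 clones does not show that the hairpins act alike. Both hairpins were compared with the same control libraries, so their own values are set side by side without a correlation. shOgdh346 differed from the control in 1555 higher genes (11.3%) and 1578 lower genes (11.5%), with log2 fold changes of -2.31 for Ogdh, -1.97 for Shmt2, 4.22 for Slc7a11, 5.27 for Egr1 and 2.13 for Itgam, against -2.11, -1.55, 5.15, 6.51 and 1.95 with shOgdh2081. Other named genes were less alike: Serpinb2 had 4.93, Pde10a 2.27 and Apba1 -1.94 with shOgdh346, against 10.33, 5.56 and -5.16 with shOgdh2081. Differences between the hairpins (shOgdh2081 minus shOgdh346, log2 ± SE) were 5.40 ± 0.73, 3.28 ± 0.73 and -3.22 ± 1.06 for these genes, each with adjusted p = 0.672. They were -3.07 ± 1.32 for Ltf, -2.07 ± 1.16 for Ngp and -1.71 ± 0.94 for S100a9, with adjusted p of 0.686, 0.737 and 0.734. Neither shOgdh346 clone carried Y-linked transcripts, so this comparison is not balanced for the clone kind as the one with the control is.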

How the data were processed

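The members, gene lists and tests were chosen with earlier results of these data known. The values deposited by the authors are whole-number counts per Ensembl gene (53465 genes), with no normalization. The tools that the submitters' processing notes list, without role or order, are featureCounts 1.6.3, STAR 2.6.1a, Trimmomatic 0.36 and FastQC 0.11.5, and the build is mm10 (GRCm38). Per the labels' protocols, TruSeq libraries of poly(A) RNA were sequenced from 1 end. The same protocol names a human build, HTSeq and an RPKM matrix, which the deposited counts under mouse identifiers do not match. Strandedness and the treatment of multi-mapping reads are not stated in any source used here, so values of genes with near-identical copies or antisense partners are uncertain. A gene length column, also deposited, was not used.

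The 2 libraries of each clone were summed. The 6 sums of day 4, in 3 hairpin groups, were filtered with filterByExpr (13747 genes left), scaled with TMM and tested with edgeR 4.0.16 in R 4.3.3 (robust quasi-likelihood test, 3 residual degrees of freedom, median prior 2.56), with Benjamini-Hochberg adjustment over all genes tested and a threshold of 0.05. The 3 hairpins share 1 estimate of the spread. The same fit was made at day 0 (13125 genes). Replicate numbers were checked for pairing by correlating the difference between replicates 1 and 2 across 8871 genes between the 4 clones: r was 0.63 to 0.75 at day 0, above 0.1 in 6 of 6 pairs, and -0.02 to 0.27 at day 4, above 0.1 in 3 of 6. The labels do not say what the numbers share; the sums hold both numbers of each clone. The net change was fitted on 12 sums with the clone as a block (14249 genes). Each standard error (SE) was computed back from the F statistic. CPM are on TMM-scaled library sizes and not per length, so levels are not compared between genes. Differences within a clone kind are of log2(CPM + 0.5). The procedure was tested on simulated data. Floors of 3 counts refer to counting error alone. Within a clone, day 4 libraries differed by more than counting noise (chi-square per gene 1.60 to 2.94 over genes with at least 20 counts), so none was a repeat of 1 library. At day 0 the same measure was 6.78 to 10.3.

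Named genes are Ogdh; the 12 largest rises and 12 largest falls among called genes with at least 5 CPM and no overlap of libraries, passing over predicted gene models; up to 4 called members with the smallest p in each of 36 lists (978 entries, 977 matched); and the 5 genes highest in either shOgdh2081 clone over the other. Other members of the lists named in the text were added for their known roles, with values seen. Lists are described by counts and medians only. Alternatives were RLE scaling, no low-count filter, DESeq2 1.42.0, limma-voom (limma 3.58.1), other sets of samples and leaving out each library or clone. A term for the clone kind, and fits of day 0 and net change over libraries with and without a replicate block, were added after the data were seen. Promoter sequences are those of RefSeq on GRCm38.p6, matched by symbol (9771 tested genes). Some items of these lists are not reported here.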

Additional observations from a re-analysis of the deposited data

Results flagged for a closer look

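Of 58 groups of 4 libraries checked for a library far from the other 3 (library totals and shares, Ogdh and the largest rises and falls), 1 stood out, and chance gives about 1 in 20 such groups. In the control at day 4, Raet1d stood at 0.526 and 0.101 CPM in clone 2 and at 0.524 and 0.457 CPM in clone 7, so that the second library of clone 2 lies below the other 3. Its gap to the nearest of them came to 0.839 of the range of the group, above the 95% critical value of Dixon's test. Without that library Raet1d kept its call.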

How the results depend on the processing

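The day 4 counts of genes higher and lower were within 1.5 times of 968 and 932 under RLE scaling (996 and 855), without the low-count filter (1430 and 1108), with limma-voom (827 and 984), with a term for the clone kind (1126 and 1173, chosen after the data were seen) and without any 1 library (897 to 985 and 871 to 963). They moved further with DESeq2 (1839 and 1723), with 12 sums of both days (1907 and 2160), with the 4 clones compared alone (302 and 225, with 2 residual degrees of freedom), without shOgdh2081 clone 3 (0 and 0), without shOgdh2081 clone 5 (442 and 417), without control clone 2 (5 and 0) and without control clone 7 (1 and 1). Where a clone was left out its partner was assumed to vary like the other groups. With libraries as replicates, which treats libraries of 1 clone as independent, 3162 and 3317 genes were called, and 3084 and 3230 with the replicate number as a block. With the same kind of block within each day, also chosen after the data were seen, 0 genes were called at day 0 in either direction (518 and 507 at an unadjusted p under 0.05, by edgeR; 0 and 0 without that block too) and 3319 and 3495 for the net change (2825 and 2973 without it). Set against the same fit without it, the block moved none of these counts of called genes by over 1.5 times. The day 0 counts at an unadjusted p under 0.05 were 286 and 328 without the block, by edgeR, and moved further than that. Ogdh stayed below the control in every setting. It missed the threshold without the filter (-2.08, adjusted p = 0.125), with the 4 clones alone (-2.10, 0.0525), without shOgdh2081 clone 3 (-2.66, 0.0804) or clone 5 (-1.73, 0.0652), and without control clone 2 (-2.21, 0.115) or clone 7 (-1.96, 0.141). With the 4 clones alone the replication list kept 17 lower genes, the mitosis list 9, the ATF4 list 9, and the neutrophil list 9 higher genes. These lists held 50, 59, 41 and 51 tested genes in the main fit. Over all 13095 genes tested with the 4 clones alone, 225 were lower and 302 higher. At day 0 the counts of higher and lower genes were 100 and 83 without the filter and 1 and 1 with DESeq2, and 1 lower gene was called without shOgdh2081 clone 5 or without control clone 7; without replicate 1 or replicate 2 the counts were 0. For the net change, 504 and 708 genes were called without the clone block, 738 and 625 without control clone 2 and 591 and 527 without control clone 7; without replicate 1 or 2 the counts ran from 1366 to 1765 and from 1361 to 1984. Ogdh and the 126 other genes followed over the day 4 settings kept their direction. Genes picked for a difference between the shOgdh2081 clones, and list members added for their known roles, were not followed. The cause of these shifts was not tested. With 2 clones a side, small differences and genes near 1 CPM are beyond what these data can resolve.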
